A study of Mus musculus with 20 samples.

Results

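The genes described here are 10 transcripts used as astrocyte markers, Gfap, Vim, Clu, Apoe, Glul, Mlc1, Aqp4, Slc1a2, Slc1a3 and S100b, in mouse cortical cultures deprived of oxygen and glucose. They were chosen by name, out of 15785 genes with a named probe, and are represented by 11 of the 24620 probes of the array: 2 for Mlc1 and 1 for each other gene. The cultures were prepared from the neocortex of Swiss albino mouse fetuses at gestation day 15 to 16 and had grown for 7 days. The labels call every sample primary cortical neurons and give the controls no agent. Deprivation of oxygen and glucose (OGD), which models ischemia in a dish, was kept up at an oxygen pressure under 50 mm Hg. It lasted 10 min (3 arrays), 5 h (3 arrays), 8 h (3 arrays), 15 h (3 arrays) or 24 h (3 arrays), and 5 arrays were controls. No transgene or genetic change is given for any group.

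Astrocytes are the glial cells that clear glutamate from the synapse, convert it to glutamine, carry water and potassium away from neurons and supply them with lipids. In injured brain tissue they become reactive, a state in which the intermediate filament proteins GFAP and vimentin accumulate. Cultures of fetal cortex hold mostly neurons but can contain astrocytes and the radial glia from which these arise. RNA of the whole culture was measured, so a larger number of astrocytes, more RNA in each of them and less RNA from other cells cannot be told apart in any value below.

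Arrays had median signals from 53.1 to 65.4 and detected 37% to 40.8% of their probes. Of the 3 slides, slide 1 held the 10 min arrays and control replicate 1, slide 2 the arrays of 5 h and 8 h and control replicates 4 and 5, and slide 3 those of 15 h and 24 h and control replicates 2 and 3. Control replicate 2 stood above the mean of the other controls for all 8 member genes that could be tested, by 0.18 to 0.47 on the log2 scale, and control replicate 3 stood below it for all 8, by values from -0.60 to -0.16. Results that change without one of these arrays are given with and without it. The labels number the replicates and do not say whether they came from separate cultures, so p-values reflect the spread of these samples alone, and that spread may be technical. Precision is limited by how many arrays there are. Of 20 neuron markers with a probe, 17 were detected on all 20 arrays, among them Stmn2, Gap43 and Dcx, while the probes of Snap25, Nefl and Gad2 were detected on none.

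The promoters of 4 members are shown because these genes were higher together at 15 h and 24 h, as described below, and each of these starts is the outermost one annotated for its gene. Each line holds the 250 bases before the start in RefSeq, build GRCm38.p6, read 5′ to 3′ on the strand of the gene. The windows are chr11:102897201-102897450 on the minus strand for Gfap, chr2:13574061-13574310 on the plus strand for Vim, chr1:153899679-153899928 on the plus strand for Glul and chr15:8710808-8711057 on the minus strand for Slc1a3. Capitals mark every match to 3 motifs searched on both strands, the STAT motif TTCNNNGAA, the AP-1 motif TGANTCA and the E-box CANNTG.
Gfap: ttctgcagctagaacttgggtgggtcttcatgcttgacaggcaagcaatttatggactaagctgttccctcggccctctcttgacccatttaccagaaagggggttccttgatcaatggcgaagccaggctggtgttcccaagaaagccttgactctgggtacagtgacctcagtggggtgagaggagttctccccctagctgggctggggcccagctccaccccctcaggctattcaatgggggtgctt
Vim: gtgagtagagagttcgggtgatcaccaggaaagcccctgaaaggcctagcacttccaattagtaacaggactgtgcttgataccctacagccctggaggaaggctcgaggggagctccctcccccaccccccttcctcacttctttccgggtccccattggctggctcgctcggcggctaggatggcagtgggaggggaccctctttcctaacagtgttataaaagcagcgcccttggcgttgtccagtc
Glul: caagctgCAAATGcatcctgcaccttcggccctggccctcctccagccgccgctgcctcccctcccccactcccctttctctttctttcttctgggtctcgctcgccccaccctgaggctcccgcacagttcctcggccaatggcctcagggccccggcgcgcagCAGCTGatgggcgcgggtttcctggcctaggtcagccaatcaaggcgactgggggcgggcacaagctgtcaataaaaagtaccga
Slc1a3: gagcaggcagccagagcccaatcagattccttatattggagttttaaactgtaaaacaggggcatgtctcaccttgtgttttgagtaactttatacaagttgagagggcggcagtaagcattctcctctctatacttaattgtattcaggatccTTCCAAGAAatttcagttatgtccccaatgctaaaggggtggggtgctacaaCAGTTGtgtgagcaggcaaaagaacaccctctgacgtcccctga
The window of Slc1a3 held 1 STAT match, TTCCAAGAA, which began 96 bases before the start, and 1 E-box, CAGTTG, 44 bases before it. The window of Glul held 2 E-boxes, CAAATG and CAGCTG, 243 and 85 bases before the start. Those of Gfap and Vim held none of the 3 motifs. Of 32851 mouse promoters of the same length, 7.02% held the STAT motif, 6.75% the AP-1 motif and 66.2% an E-box. A match is a description of the letters and not of a bound site.

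Of the 11 probes, 8 of as many genes passed the filter of a detection p under 0.01 on at least 3 arrays. The 3 others were detected on no array and gave no test. They were the probe of Slc1a2, the glutamate transporter GLT-1 of mature astrocytes, with a mean signal of 44.8, the probe of S100b, a calcium-binding protein of astrocytes, with 46.6, and 1 of the 2 probes of Mlc1, with 44.6. Their signals over all arrays stayed between 35.9 and 59.6. No level of Slc1a2 or S100b can therefore be given for any group. Of the 8 tested probes, 6 were detected on all 20 arrays. The Gfap probe was detected on 19, missing in 5 h replicate 1, and the other Mlc1 probe on 17, missing in control 3, 5 h replicate 2 and 8 h replicate 1. These 2 probes had mean signals of 100.8 and 88.1.

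Gene names rest on a choice between tables. The probe profile and the processed tables name the same values differently, and the names here are the profile's own. With them Vim had a mean signal of 5478.6. With the names of the processed tables Vim had 58.6, and 2 of 11 member probes, one of Clu and one of Mlc1, were detected on at least 3 arrays, against 8 with the names used here.

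Most of the tested members were higher than in the controls after 10 min, none passed the test after 5 h and 8 h, and all were higher after 15 h and 24 h. Levels below are normalized log2 intensities, and each probe is compared only with itself across arrays. Whether arrays overlap is likewise read from the normalized levels unless signals before normalization are named. Adjusted p-values come from limma's two-sided moderated test over 10447 probes with the Benjamini-Hochberg adjustment, with n = 3 for each time and n = 5 for the controls. In the F test over the 5 times all 8 passed, against 54.5% of all probes, and adjusted p ran from 5.22e-07 for Gfap to 0.000819 for Glul. All comparisons with the controls share the same 5 control arrays.

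**Figure D1:**
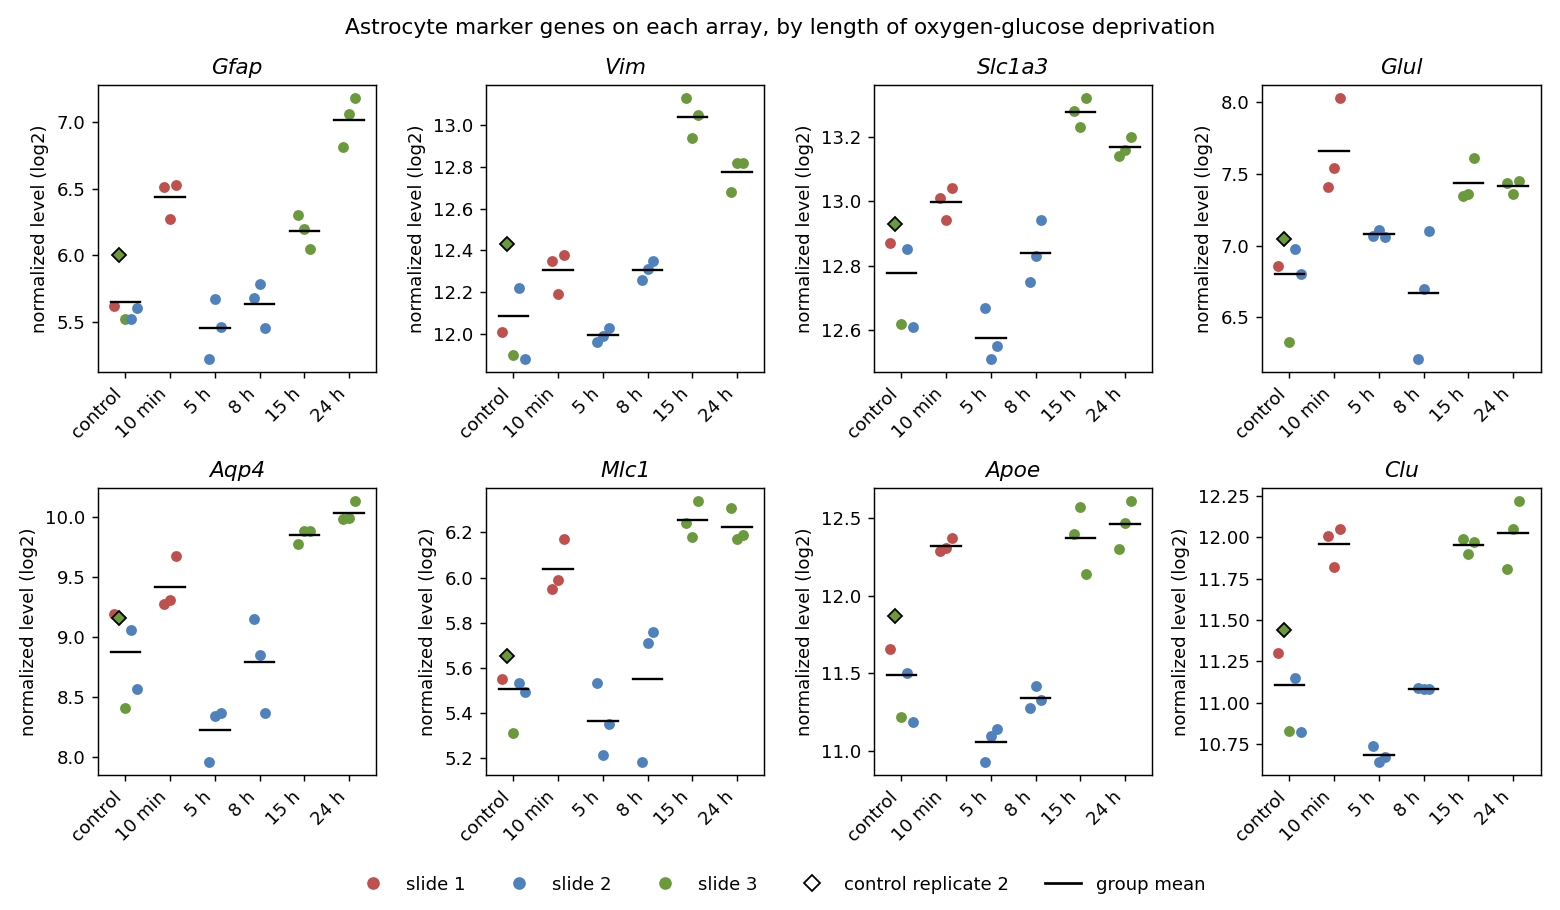
Normalized log2 level of each of the 8 tested astrocyte markers on each of the 20 arrays (vertical axis, scaled to each gene), by length of deprivation. Points are arrays coloured by slide, the diamond is control replicate 2 and lines are group means; Gfap reaches 6.81 to 7.18 at 24 h against 5.52 to 6.0 in the controls.

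Gfap, the intermediate filament protein by which astrocytes are most often recognised, lies on chromosome 11. In the 5 controls its level was 5.62, 6.0, 5.52, 5.52 and 5.60. After 10 min it was 6.51, 6.27 and 6.53, and after 5 h 5.22, 5.67 and 5.46. All 10 min arrays lay above all controls, while the 5 h arrays overlapped them. At 8 h the Gfap level was 5.68, 5.78 and 5.45, at 15 h 6.30, 6.20 and 6.05, and at 24 h 6.81, 7.06 and 7.18. Each array of 15 h and 24 h lay above every control, and those of 24 h also above every other array of the series. That last order, and that of 15 h above every control, rest on the normalization. Before it, the signal of 24 h replicate 1 was 127.6, below the 145.1 and 127.7 of 10 min replicates 1 and 3. The signal of 15 h replicate 3 was 86.2, below the 91.0 of control replicate 2. Gfap rose by 0.79 ± 0.13 on the log2 scale at 10 min (SE, adjusted p = 0.000635), by 0.53 ± 0.13 at 15 h (adjusted p = 0.0028) and by 1.37 ± 0.13 at 24 h (adjusted p = 1.84e-06), a 2.58-fold difference. The rise at 15 h was 0.42 with the slide as a fixed block (adjusted p = 0.0575), so that call was lost, while at 24 h it was 1.26 (adjusted p = 0.000289). Of the 8 tested members Gfap alone passed between 24 h and 15 h, by 0.83 ± 0.14 (adjusted p = 0.00529), and both times lie on the same slide, where the value was 0.83 as well (adjusted p = 0.00698). The size of the Gfap differences moved with the normalization: from the authors' normalized values they were 0.54 at 10 min, 0.33 at 15 h and 0.90 at 24 h, all past the test, and with 75th-percentile scaling 0.52 at 10 min.

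Vim encodes vimentin, an intermediate filament protein of astrocytes, radial glia, endothelial cells and fibroblasts, and lies on chromosome 2. Its control levels were 12.01, 12.43, 11.90, 12.22 and 11.88. The 15 h arrays read 13.13, 12.94 and 13.05 and the 24 h arrays 12.68, 12.82 and 12.82, all above every control. Vim was 0.95 ± 0.11 higher at 15 h (adjusted p = 3.72e-06) and 0.69 ± 0.11 higher at 24 h (adjusted p = 0.000123). Unlike Gfap it did not pass at 10 min, where the arrays read 12.35, 12.19 and 12.38 and the difference was 0.22 (95% confidence interval -0.01 to 0.44, adjusted p = 0.156). Without control replicate 2, the highest control, it passed there at 0.30 (adjusted p = 0.0133). At 5 h the arrays read 11.96, 11.99 and 12.03, and at 8 h 12.26, 12.31 and 12.35, and neither passed. Between 15 h and 24 h the 2 filament genes went apart in value: Gfap rose, and Vim differed by -0.26 (95% confidence interval -0.51 to -0.01, adjusted p = 0.303), with no overlap between the arrays of the 2 times.

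Slc1a3 encodes the glutamate transporter GLAST, which astrocytes and radial glia use to take glutamate up. In the controls its level was 12.87, 12.93, 12.62, 12.85 and 12.61. After 15 h it was 13.28, 13.23 and 13.32, and after 24 h 13.14, 13.16 and 13.20. The ranges were narrow and did not overlap: Slc1a3 rose by 0.50 ± 0.09 at 15 h (adjusted p = 0.000144) and by 0.39 ± 0.09 at 24 h (adjusted p = 0.00217). At 10 min the arrays read 13.01, 12.94 and 13.04, all above the controls, yet the difference of 0.22 ± 0.09 did not pass (adjusted p = 0.0743). It passed without control replicate 2 (adjusted p = 0.0231). The 5 h arrays read 12.67, 12.51 and 12.55 and the 8 h arrays 12.75, 12.83 and 12.94. Both overlapped the controls and did not pass.

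Glul, glutamine synthetase, is the enzyme by which astrocytes turn glutamate and ammonia into glutamine. Its control levels were 6.86, 7.05, 6.33, 6.98 and 6.80. The 10 min arrays read 7.41, 7.54 and 8.03, the 15 h arrays 7.35, 7.36 and 7.61, and the 24 h arrays 7.44, 7.36 and 7.45. All of these normalized levels lay above the controls. Before normalization control replicate 4 had a signal of 180.6. Below it lay 24 h replicates 1 and 2, at 178.7 and 176.4, and 15 h replicate 2, at 173.6. Glul rose by 0.85 ± 0.18 at 10 min (adjusted p = 0.0029), by 0.64 ± 0.18 at 15 h (adjusted p = 0.00717) and by 0.61 ± 0.18 at 24 h (adjusted p = 0.0133). The 10 min value with the slide as a fixed block was 0.80 and lost its call (adjusted p = 0.0753), and without 24 h replicate 3 the 24 h value was 0.59 (adjusted p = 0.0553). Of the tested members Glul alone had a difference above 0 at 5 h, 0.28, which did not pass (adjusted p = 0.37). Its 5 h arrays read 7.07, 7.11 and 7.06, just above the controls. The signals of 5 h replicates 1 and 3 before normalization, 176.3 and 179.2, lay below that of control replicate 4. Its 8 h arrays spread from 6.21 through 6.70 to 7.10.

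Aqp4 encodes aquaporin-4, the water channel of astrocyte end-feet. In the controls its level was 9.19, 9.16, 8.41, 9.06 and 8.57. At 15 h it was 9.77, 9.88 and 9.88 and at 24 h 9.98, 9.99 and 10.13, with both groups above all controls. Aqp4 rose by 0.96 ± 0.18 at 15 h (adjusted p = 0.000339) and by 1.15 ± 0.18 at 24 h (adjusted p = 0.00013), and with the slide as a fixed block by 1.06 and 1.25. At 10 min the arrays read 9.27, 9.31 and 9.67, above all controls but close to control replicates 1 and 2. The rise of 0.54 ± 0.18 passed narrowly (adjusted p = 0.0413) and was 0.23 against the control of its own slide (adjusted p = 0.647). It was also lost on leaving out any 1 of the 3 10 min arrays, control replicate 3 or 5, 15 h replicate 1, or 24 h replicate 1 or 2, at adjusted p from 0.0502 to 0.193. At 5 h Aqp4 read 7.96, 8.34 and 8.37, all below the lowest control, and the difference of -0.66 ± 0.18 did not pass (adjusted p = 0.0543). At 8 h the arrays read 9.15, 8.85 and 8.37, across the range of the controls.

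Mlc1 encodes a membrane protein of astrocyte end-feet that acts in volume regulation and is mutated in a human leukodystrophy. The level of its detected probe was 5.55, 5.65, 5.31, 5.53 and 5.49 in the controls. At 10 min it was 5.95, 5.99 and 6.17, at 15 h 6.24, 6.18 and 6.34, and at 24 h 6.31, 6.17 and 6.19. None of these arrays overlapped the controls. Mlc1 rose by 0.53 ± 0.12 at 10 min (adjusted p = 0.00511), by 0.74 ± 0.12 at 15 h (adjusted p = 7.47e-05) and by 0.72 ± 0.12 at 24 h (adjusted p = 0.000206). The 10 min value with the slide as a fixed block was 0.49 and did not pass (adjusted p = 0.11). From the authors' normalized values the Mlc1 differences were 0.34, 0.45 and 0.42 at 10 min, 15 h and 24 h, and with 75th-percentile scaling 0.32 at 10 min, all past the test. The 5 h arrays read 5.53, 5.21 and 5.35 and the 8 h arrays 5.18, 5.71 and 5.76, with no call at either time.

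Apoe encodes apolipoprotein E, the main lipid carrier that astrocytes secrete in the brain. Its level in the controls was 11.66, 11.87, 11.22, 11.50 and 11.19. At 10 min it was 12.29, 12.31 and 12.37, at 15 h 12.40, 12.57 and 12.14, and at 24 h 12.30, 12.47 and 12.61. All of these arrays lay above all controls. Before normalization the Apoe signal of 15 h replicate 3 was 3557.9, below the 3716.2 of control replicate 2. Apoe rose by 0.84 ± 0.13 at 10 min (adjusted p = 0.000562), by 0.88 ± 0.13 at 15 h (adjusted p = 4.56e-05) and by 0.97 ± 0.13 at 24 h (adjusted p = 4.68e-05). The rises were 0.67, 0.83 and 0.91 with the slide as a fixed block, and all passed, the first at adjusted p = 0.0448. The 5 h arrays, at 10.93, 11.10 and 11.14, lay below the lowest control, and the difference of -0.43 ± 0.13 did not pass (adjusted p = 0.0759). At 8 h the arrays read 11.28, 11.42 and 11.33, within the range of the controls.

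Clu encodes clusterin, also called apolipoprotein J, a secreted chaperone that binds lipids and misfolded proteins. In the controls the Clu level was 11.30, 11.44, 10.83, 11.15 and 10.82. At 10 min it was 12.01, 11.82 and 12.05, at 15 h 11.99, 11.90 and 11.97, and at 24 h 11.81, 12.05 and 12.22. These 9 arrays all lay above the controls. Clu rose by 0.85 ± 0.13 at 10 min (adjusted p = 0.000339), by 0.85 ± 0.13 at 15 h (adjusted p = 3.85e-05) and by 0.92 ± 0.13 at 24 h (adjusted p = 4.26e-05). The rise at 10 min was 0.66 with the slide as a fixed block (adjusted p = 0.0359). At 5 h the arrays read 10.74, 10.64 and 10.67, all under the lowest control, with a difference of -0.43 that did not pass (adjusted p = 0.0654). At 8 h they read 11.09, 11.08 and 11.08.

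Read by comparison, 6 of the 8 tested members were higher at 10 min and none was lower, where 20.4% of all probes passed in either direction, 11% higher and 9.39% lower. Arrays of 7 members, all but Vim, did not overlap those of the controls, beside 17.3% of all probes. Slide 1 holds a single control, so a comparison within that slide rests on control replicate 1. In a fit with the slide as a fixed block 3 members passed at 10 min, Apoe, Clu and Gfap, beside 11.8% of all probes. The median difference of the members was 0.66, beside 0.00 for all genes, and 0.57 with the block. Without control replicate 2 all 8 passed, beside 33.8% of all probes. Without control replicate 3, or control replicate 5, 5 passed, beside 13.1% of all probes each time. Leaving out any 1 of the 10 min arrays also left 5, beside 10.6% to 11.2% of all probes.

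At 5 h none of the 8 members passed (limma), where 2.83% of all probes did (1.68% higher, 1.15% lower). An unadjusted p under 0.05 was found for 4 members, Apoe, Aqp4, Clu and Slc1a3, beside 2281 of all 10447 probes. A difference below 0 was found for 7 members and above 0 for Glul, with a median of -0.20. In normalized level the arrays of Apoe, Aqp4, Clu and Glul did not overlap those of the controls, beside 10.4% of all probes. The signals of each of these genes before normalization did overlap. Leaving out control replicate 3, or control replicate 5, brought Apoe, Aqp4 and Clu past the test as lower, at adjusted p from 0.0232 to 0.0461, beside 3.92% and 5.27% of all probes. Leaving out 8 h replicate 1 or 3 brought Aqp4 past it at 5 h (adjusted p = 0.0459 and 0.0335), beside 2.55% and 3.53% of all probes. With the slide as a fixed block none of the members and 0% of all probes passed at 5 h. At 8 h no member and 0% of all probes passed, no member had an unadjusted p under 0.05, and 668 probes did. The arrays of every member overlapped those of the controls, whereas 2.9% of all probes did not overlap. The members' 8 h differences ran from -0.15 for Apoe to 0.22 for Vim.

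All 8 tested members were higher at 15 h, where 38.6% of all probes passed, 18.7% higher and 19.9% lower, and the differences ran from 0.50 for Slc1a3 to 0.96 for Aqp4. At 24 h all 8 were higher again, beside 29.1% of all probes in either direction, 14.7% higher and 14.4% lower, with differences from 0.39 for Slc1a3 to 1.37 for Gfap. From the authors' normalized values the difference of Gfap at 24 h was 0.90. In normalized level no array of these 2 times overlapped the controls for any tested member, beside 32.2% of all probes at 15 h and 26.3% at 24 h. Before normalization, signals of Apoe, Gfap and Glul at 15 h and of Glul at 24 h overlapped those of the controls. Under the fixed slide block 7 passed at 15 h, all but Gfap, beside 28% of all probes, and 8 at 24 h, beside 13.8%. The median differences of the members were 0.80 and 0.82, beside -0.02 and -0.02 for all genes.

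**Figure D2:**
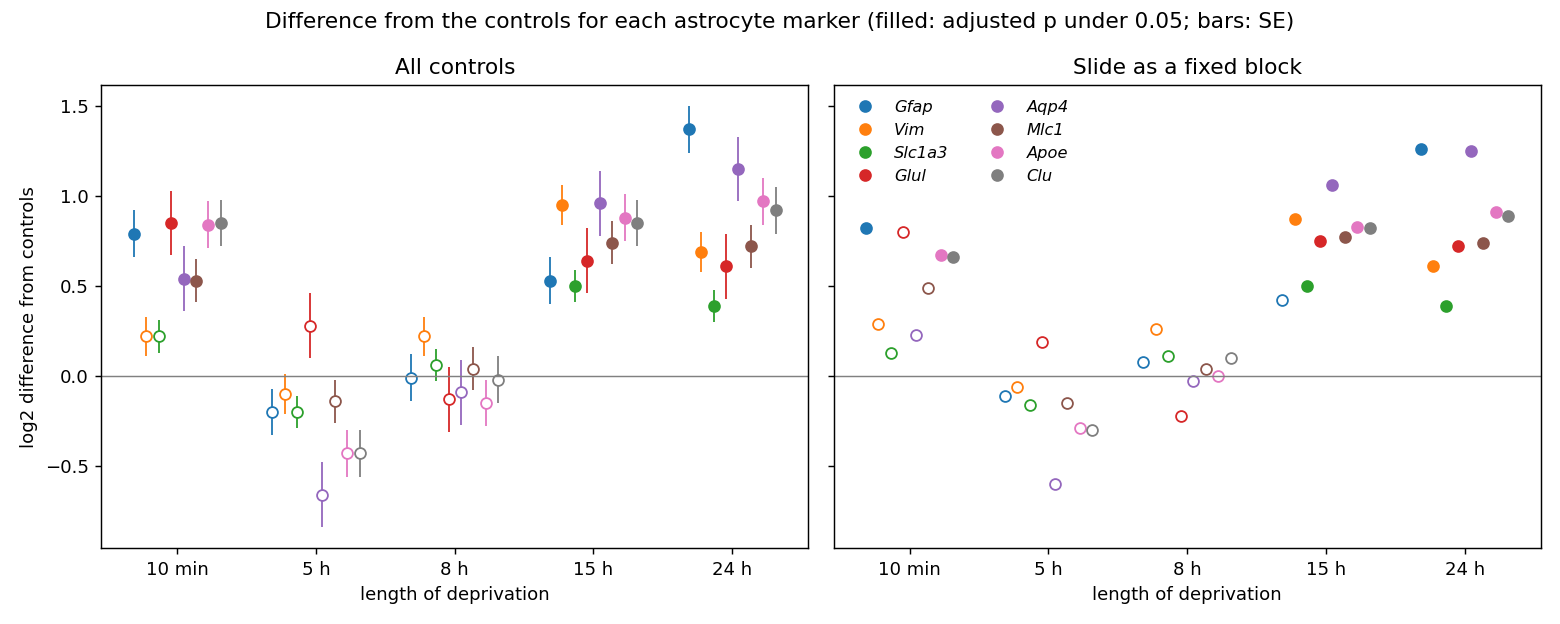
Log2 difference from the controls for the 8 tested astrocyte markers at each length of deprivation, against all 5 controls with standard errors (left) and with the slide as a fixed block (right). Filled points have an adjusted p under 0.05; on the left 6 points are filled at 10 min, none at 5 h and 8 h, and 8 at 15 h and 24 h, and on the right 3, 0, 0, 7 and 8.

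Between successive times, 8 h against 5 h gave no called member, where 2.31% of all probes passed (1.23% higher, 1.07% lower). An unadjusted p under 0.05 was found for 4 members, Aqp4, Clu, Slc1a3 and Vim, beside 2168 of all 10447 probes. The differences ran from -0.41 for Glul to 0.57 for Aqp4. Arrays of the 2 times did not overlap for 5 members, beside 26.1% of all probes. Without 8 h replicate 3 Aqp4 passed at 0.78 (adjusted p = 0.0491), beside 2.38% of all probes. For 15 h against 8 h all 8 members were higher, beside 32.9% of all probes in either direction, 16% higher and 16.9% lower, with differences from 0.44 for Slc1a3 to 1.05 for Aqp4. The arrays of the 2 times did not overlap for any of the 8, beside 48.1% of all probes, and these times lie on different slides. With the slide as a fixed block, which compares them through the controls of each slide, Apoe at 0.83 (adjusted p = 0.0411) and Aqp4 at 1.09 (adjusted p = 0.0479) passed, beside 6.7% of all probes. The other 6 kept positive differences, from 0.34 for Gfap to 0.97 for Glul, at adjusted p from 0.051 to 0.384. For 24 h against 15 h, on 1 slide, 1.04% of all probes passed (0.431% higher, 0.613% lower) and of the members Gfap alone. Vim and Slc1a3 had arrays that did not overlap between these times, lower at 24 h, and Aqp4 had arrays that did not overlap, higher at 24 h, without passing. With Gfap these are 4 of 8 members, beside 29.4% of all probes. Signals of Vim and Slc1a3 before normalization did overlap between these times.

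The order of the group means of the normalized levels was alike in part. For Gfap, Aqp4, Apoe and Clu the mean of 24 h stood first, for Vim, Slc1a3 and Mlc1 that of 15 h, and for Glul that of 10 min. Arrays of neighbouring groups at the top of the order overlapped for Apoe, Clu, Glul and Mlc1, and did not for Gfap, Aqp4, Slc1a3 and Vim. The 5 h mean stood last for 7 members and the 8 h mean for Glul. The 10 min and 8 h means of Vim were equal at 12.31.

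The members varied together over the 20 arrays. Over the 28 pairs of the 8 genes Pearson's r ran from 0.54 for Vim with Glul to 0.98 for Clu with Apoe, with a median of 0.84. The points share the arrays, their slides and their normalization, so r is a description. After the group means were taken out, r ran from -0.14 for Gfap with Mlc1 to 0.82, with a median of 0.54, and 26 of the 28 pairs stayed above 0. Each member correlated with the mean of the others between 0.70 for Glul and 0.97 for Clu.

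**Figure D3:**
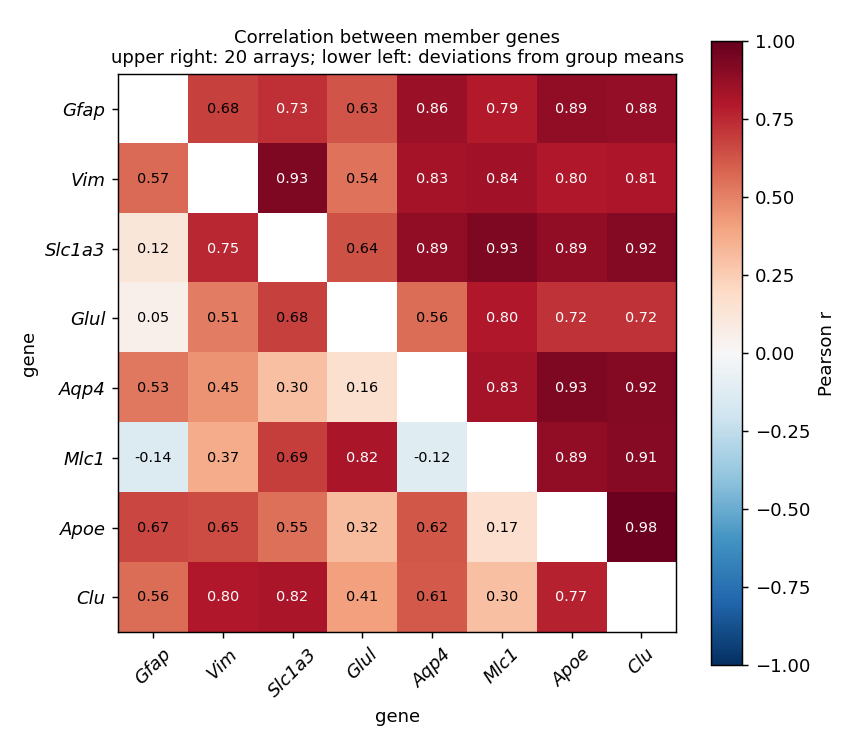
Pearson r between the levels of each pair of the 8 tested astrocyte markers over 20 arrays (upper right) and between their deviations from group means (lower left). Clu with Apoe has the highest upper value, 0.98, and Gfap with Mlc1 the lowest lower value, -0.14.

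Outside the members, the named probes with the pattern most like that of Gfap over the 20 arrays were those of Pdlim2 at r = 0.951, Slc14a2 at 0.938, Tmem100 at 0.937, a probe of Acta2 at 0.934 and Mcm6 at 0.932. The probes of Pdlim2 and Acta2 were detected on 7 and 8 arrays. Most like the mean of the standardized members were Igfbp7 and Jak1 at 0.987, Dhrs1 at 0.986, Parp3 at 0.984 and Dynlrb2 at 0.983, all detected on 20 arrays.

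Other astrocyte genes went in the same direction in part. The counts of each list below stand beside the share of all probes that passed in either direction. That share was 20.4% at 10 min, 2.83% at 5 h, 0% at 8 h, 38.6% at 15 h and 29.1% at 24 h. With the slide as a fixed block it was 11.8% at 10 min, 28% at 15 h and 13.8% at 24 h. Of 30 listed astrocyte markers that are no members, all tested, 11 were higher and 2 lower at 10 min, 0 and 1 at 5 h, none at 8 h, 24 and 1 at 15 h, and 17 and 1 at 24 h. The median difference was 0.18 at 10 min and 0.44 at both late times, and with the slide as a fixed block 2 were higher at 10 min, 19 at 15 h and 12 at 24 h. Plpp3, a lipid phosphatase, rose by 0.71 at 10 min, by 1.07 at 15 h and by 1.02 at 24 h, and fell by 0.63 at 5 h (adjusted p = 0.0331). The metallothionein Mt2, which binds zinc and copper, rose by 2.03 ± 0.25 at 15 h and 1.03 ± 0.25 at 24 h, and Mt3 by 0.61, 1.00 and 1.00 at 10 min, 15 h and 24 h. Slc7a11, the cystine-glutamate exchanger, went the other way at 10 min, where it fell by 0.46 (adjusted p = 0.0255), and rose by 1.14 at 15 h. Its difference at 24 h was -0.14 (adjusted p = 0.466), and between 15 h and 24 h Slc7a11 fell by 1.29 (adjusted p = 0.000316). The gap junction genes Gja1 and Gjb6, chosen after their values were seen, rose by 0.74 and 1.13 at 10 min and by 0.97 and 1.40 at 24 h. The Gjb6 probe was detected on 13 of the 20 arrays, with a mean signal of 93.6, so its values lie near the background.

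Of 33 reactive astrocyte genes with a probe, 18 were not detected often enough to be tested. Lcn2, Steap4, Cxcl10 and Serping1, which are widely used markers of reactivity, were detected on no array. Of the 15 tested, 4 were higher and 3 lower at 10 min, 2 and 0 at 5 h, none at 8 h, 7 and 1 at 15 h, and 5 and 1 at 24 h. Of all probes, 20.4% passed in either direction at 10 min, 38.6% at 15 h and 29.1% at 24 h. Serpina3n, a secreted protease inhibitor, rose by 1.20 ± 0.22 at 10 min, 1.12 at 15 h and 1.31 at 24 h. The galectin genes Lgals1 and Lgals3 rose at the same times, by 0.79, 1.47 and 1.35 and by 0.71, 1.25 and 1.01. Cd109, a membrane-anchored protein, rose by 1.84 ± 0.24 at 15 h and 1.15 at 24 h, and its 10 min value of 0.63 did not pass (adjusted p = 0.0665). The median of the list was 0.17, 0.25 and 0.15 at these times, and with the fixed slide block 2 were higher at 10 min, 6 at 15 h and 3 at 24 h.

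Lists around the members' functions did not move as one. Of all probes, 20.4% passed in either direction at 10 min, 38.6% at 15 h and 29.1% at 24 h. Some of the counts below lie near these shares. Of 13 tested genes of glutamate and glutamine handling, 1 was higher and 4 lower at 10 min, 3 and 6 at 15 h, and 2 and 4 at 24 h. Slc1a1, a glutamate transporter found mainly in neurons, fell by 0.80 at 15 h and, with a difference of -0.43, at 24 h, and Slc17a7, the vesicular glutamate transporter of cortical excitatory neurons, fell, with log2 differences of -0.52, -1.54 and -0.93 at 10 min, 15 h and 24 h. Asns, asparagine synthetase, fell as well, with differences of -1.24, -1.49 and -1.71 at the same times. Of Gclm, a subunit of the glutathione-synthesizing ligase, the value was -0.58 at 10 min, a fall, and 1.22 at 15 h, a rise. Of 6 lipoprotein genes, 1 was higher and 1 lower at 10 min, 1 and 0 at 5 h, 2 and 1 at 15 h, and 2 and 2 at 24 h. At 15 h the called genes include the lipoprotein receptors Lrp1, 0.53 higher, and Vldlr, with a difference of -0.81. Npc2, which carries cholesterol out of lysosomes, rose by 0.73 at 15 h and differed by 0.22 at 24 h (adjusted p = 0.207). At 24 h Vldlr, with -0.76, and the receptor Scarb1, with -0.49, fell. Among 8 intermediate filament and linker genes, 1 was higher and 1 lower at 10 min, 2 and 3 at 15 h, and 1 and 2 at 24 h. At 15 h Nes (nestin) rose by 0.62 and Plec (plectin) by 0.56, while Nefm, a neurofilament subunit, fell by 1.01 and Synm (synemin) fell by 0.94. At 24 h Plec rose by 0.74 and Nefm fell by 0.81, while Nes, with -0.07 (adjusted p = 0.699), and Synm, with -0.10 (adjusted p = 0.706), did not pass.

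**Figure D4:**
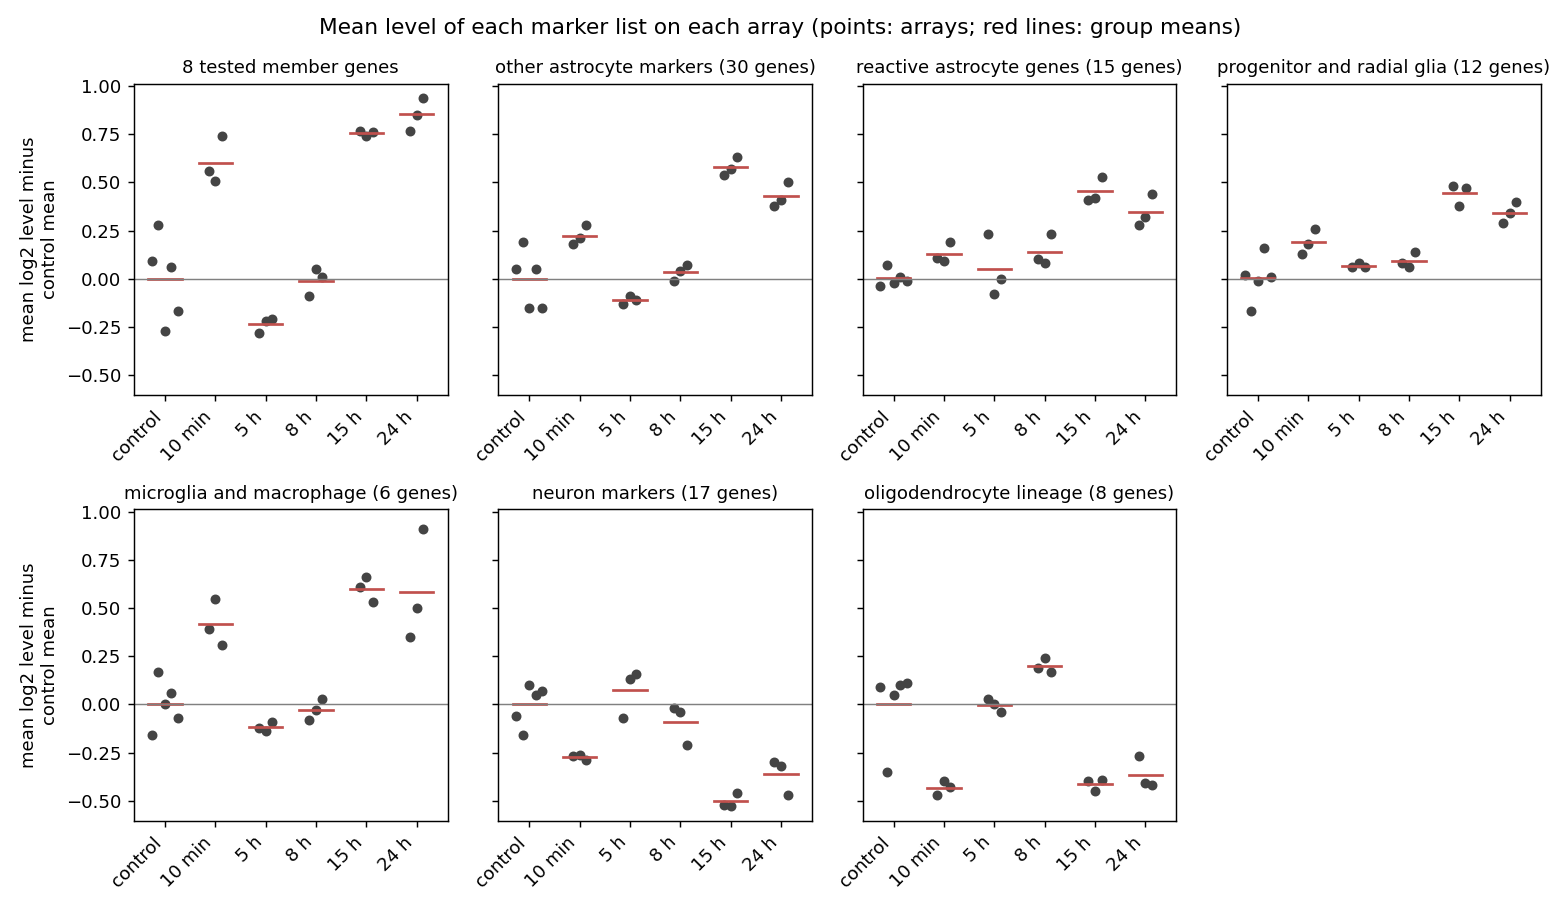
Mean log2 level of the tested genes of each marker list on each array, minus the mean of the 5 controls, by length of deprivation. Points are arrays and red lines group means. The member genes and the other astrocyte markers stand above 0 on every 10 min, 15 h and 24 h array, and the neuron markers below 0. The microglia markers stand above 0 there too. Several of their 6 tested genes passed the detection filter through few arrays, so their mean is not support for a direction.

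Markers of other cell types moved at the same times. Of all probes, 20.4% passed in either direction at 10 min, 38.6% at 15 h and 29.1% at 24 h. With the fixed slide block the shares were 11.8%, 28% and 13.8%. Of 13 microglia and macrophage markers with a probe 6 were tested, and 3 were higher at 10 min, 5 at 15 h and 5 at 24 h. Of the tested probes C1qa and Trem2 were detected on 4 arrays each and C1qb on 6, so that they passed the detection filter through few arrays, and the count of those higher is not support for a direction. Counts with the fixed slide block were 2, 4 and 3. Their signal summed over the 13 probes was 1079.4 to 1302.5 in the controls, 1361.9 to 1620.0 at 10 min, 1086.0 to 1225.1 at 5 h, 1076.9 to 1241.5 at 8 h, 1202.9 to 1384.7 at 15 h and 1183.0 to 1469.3 at 24 h. Aif1, Itgam, Fcer1g and P2ry12, listed here as microglia and macrophage markers, were detected on no array, and Trem2 on 4 arrays, none of them a control. Laptm5 was detected on all 20 arrays, with a mean signal of 507.9, and rose by 0.41 at 10 min (limma, adjusted p = 0.0143). C1qc, a complement subunit, rose by 0.97 at 15 h and 0.89 at 24 h, and Adgre1, which encodes F4/80, by 0.45, 0.71 and 0.75 at 10 min, 15 h and 24 h. C1qc and Adgre1 were each detected in 2 of the 5 controls.

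Of 12 tested progenitor and radial glia markers, cells that also express Vim and Slc1a3, 4 were higher at 10 min, 7 higher and 1 lower at 15 h, and 5 and 1 at 24 h, and 2, 7 and 5 were higher with the fixed slide block. Nes and Tnc are also among the reactive astrocyte genes, and Fabp7 and Hes5 among the other astrocyte markers. The neuron list likewise shares Gad1 with the glutamate list and Nefm with the filament list, so counts of different lists are not independent. Prom1 rose by 0.92, 1.16 and 1.19 at these times, the Notch1 receptor by 0.34, 1.15 and 0.84, and Id4 by 0.72, 0.88 and 0.80. The mean level of the 12 tested progenitor and radial glia markers stood 0.38 to 0.48 above the control mean at 15 h. Of 17 tested neuron markers none was higher and 6, 12 and 9 were lower at 10 min, 15 h and 24 h. Of all probes 9.39%, 19.9% and 14.4% were lower at these times. Under the fixed slide block 4, 9 and 3 neuron markers were lower and 1 was higher at 10 min. With that block 11.8%, 28% and 13.8% of all probes passed in either direction, and the share of lower probes alone is not given. The neuron count at 24 h lies near the share in either direction. Neurod2, a transcription factor of cortical excitatory neurons, fell, with differences of -0.69, -0.60 and -0.74, as did Camk2a, a kinase subunit of their synapses, with -0.67, -1.09 and -0.91. The neuron markers' mean level stood between -0.29 and -0.26 at 10 min, -0.53 and -0.46 at 15 h, and -0.47 and -0.30 at 24 h, and between -0.16 and 0.10 in the controls. Of 8 oligodendrocyte lineage markers 3, 4 and 3 were lower at the 3 times, and 2, 2 and 2 with the fixed slide block. Their count at 15 h with the block lies near the share of all probes in either direction, 28%. For Mbp, a myelin protein gene, the differences without the block were -0.49, -0.93 and -0.54. Of 14 vascular and fibroblast markers with a probe 3 were tested, and the endothelial genes Pecam1, Cldn5 and Cdh5 were detected on no array. Acta2, smooth muscle actin, rose by 1.79 at 10 min, 1.43 at 15 h and 2.02 at 24 h, Pdgfrb, a pericyte receptor, by 0.60, 0.94 and 0.77, and Dcn, a proteoglycan gene, fell, with differences of -1.51, -1.74 and -2.19. The part of these cell types in the levels of the astrocyte markers was not tested.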

How the data were processed

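Total RNA of the cultures, labelled with biotin, was hybridised to 20 Illumina mouse bead arrays. Per the file headers, the deposited profile comes from BeadStudio (version 3.1.7 in the submitters' processing notes) and gives an intensity per probe and array that is not normalized and a detection score, 1 minus the detection p. Its 120 columns of other per-array values were not used. The authors also deposited normalized tables, whose values are a ratio of the array-scaled intensity to the control median (24601 rows had a control median of 1 within 1e-05). In these tables the 5 control columns hold another control array than labelled, so arrays were taken from the profile.

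Probes were named by the profile's identifier: 24620 probes, 20614 named. Of 24601 processed rows matched by value, 2 carry the same identifier as in the profile. Without the 7 bacterial probes, intensities were background-corrected, quantile-normalized and logged (log2) by the neqc function (offset 16) of limma, version 3.58.1, under R, version 4.3.3. A probe was tested if its detection p was below 0.01 on 3 or more arrays (10447 probes, 7721 genes). One 6-group model was fitted over all arrays, p-values were adjusted within each comparison over all probes (threshold 0.05), and the code was tested on simulated data. Lists use the probe of highest mean for each gene.

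The members, the gene lists and the tests were chosen with earlier results of these data known. Named are all probes of the members, of each list genes among the 4 with the smallest adjusted p at any time, and the 5 probes most like Gfap and like the mean of the members. Alternatives tried were a fixed or random block for slide, controls of the same slide, a block for replicate number, the normalized tables of the authors, other filters and normalizations, array weights, trended and robust moderation, fits of fewer groups, the processed tables' names and each array left out. Figures were drawn with matplotlib 3.10.9. The protein sequences of the members are not used here.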

Additional observations from a re-analysis of the deposited data

Results flagged for a closer look

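The Gfap level of control replicate 2, 6.0, lay far from those of the other 4 controls, 5.52 to 5.62: the gap was 0.781 of the range of the group, above the critical value of 0.71 for 5 samples. Chance gives such a gap in about 1 of 20 groups. Without this array Gfap still passed at 10 min, 15 h and 24 h, at adjusted p = 1.68e-05, 0.000267 and 2.2e-08 (limma).

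The effects of 15 h and of 8 h against the controls differed in limma's test for every tested member: by 1.03 for Apoe, 1.05 for Aqp4, 0.87 for Clu, 0.55 for Gfap, 0.77 for Glul, 0.70 for Mlc1, 0.44 for Slc1a3 and 0.73 for Vim on the log2 scale, at adjusted p from 6.33e-05 for Apoe to 0.00655 for Gfap. The 3 arrays of 15 h lay above the 3 of 8 h for each gene. These times lie on different slides, and Apoe and Aqp4 alone passed with the slide as a fixed block. The effects of 24 h and 15 h differed for Gfap by 0.83 (adjusted p = 0.00529), with all arrays of both times on 1 slide.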

How the results depend on the processing

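Of 816 single gene comparisons under settings other than leaving out an array or naming probes as in the processed tables, 769 kept their direction and their side of the threshold, 25 lost a call, 22 gained one and none reversed. Of 1280 under the loss of 1 array, 1260 stayed, 9 lost and 11 gained a call. With the slide as a fixed block 3 members passed at 10 min and 2 for 15 h against 8 h. The controls of the same slide gave the same values, so the calls lost with the block are counted under both settings. The fixed block spends residual degrees of freedom on 2 slide terms, and slide 1 has 1 control. With the slide as a random block (correlation 0.217) Aqp4 at 10 min (adjusted p = 0.14) and Gfap for 15 h against 8 h (0.0614) lost their calls. Aqp4 at 10 min also lost its call with no detection filter (0.104) and with only the groups compared (0.106), besides the losses given for this gene above. Slc1a3 at 10 min passed with 75th-percentile scaling (0.0354), the authors' normalized values (0.0321), array weights (0.0034) and trended and robust moderation (0.0331), and Vim there with array weights (0.0121). At 5 h, where no member passed, 3 were lower with 75th-percentile scaling (beside 3.99% of all probes called), 2 with trended and robust moderation (3.6%), and 1 each, Aqp4, with the authors' normalized values (9.1%), with quantile normalization without background correction (3.77%) and among probes detected on all arrays (4.03%). That last filter tests 6 member probes, leaves out Gfap and Mlc1, and so gives 0 members for 24 h against 15 h. With array weights 1 member passed at 8 h, beside 5.59% of all probes, 7 for 8 h against 5 h (6 higher, Glul lower), beside 34.3%, and 2 for 24 h against 15 h (Gfap higher, Vim lower), beside 17.5%. The cause was not tested. Named as in the processed tables, only 2 member probes can be tested: 0 passed at 10 min, 2 at 15 h, 0 at 24 h, 0 for 15 h against 8 h, 0 for 24 h against 15 h and 0 in the F test. Leaving out each array in turn gave 5 to 8 members at 10 min, 0 to 3 at 5 h, 0 to 0 at 8 h, 8 to 8 at 15 h, 7 to 8 at 24 h, 0 to 1 for 8 h against 5 h, 8 to 8 for 15 h against 8 h, 1 to 1 for 24 h against 15 h and 8 to 8 in the F test. Whether replicate numbers pair the samples is not given by the labels. Deviations of 45 same-numbered pairs of arrays correlated at -0.58 to 0.45 with a median of 0, and 10 were over 0.1. Other pairs also had a median of 0. With 3 to 5 arrays in a group, such correlations cannot decide whether the numbers pair the samples. The replicate block took away 1 call, Aqp4 at 10 min (0.50, adjusted p = 0.162), and left 5 members there. Signal over background limits Gfap and Mlc1.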
